A study of Mus musculus with 31 samples.

Results

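The nuclear genes of the mitochondrial respiratory chain and of ATP synthase were followed across the RNA-seq libraries of mouse embryonic stem cells (mESCs). They were chosen by name. Every gene in the expression table whose symbol starts with Ndufa, Ndufb, Ndufc, Ndufs, Ndufv, Uqcr, Cox4, Cox5, Cox6, Cox7, Cox8 or Atp5 was taken, together with Sdha, Sdhb, Sdhc, Sdhd and Cyc1. This gave 91 of the 15034 genes in the table. The rule uses names and no measured value, though it was set with earlier results of these data known. By role, 7 encode core subunits and 29 accessory subunits of complex I, 4 complex II, 9 complex III, 16 complex IV and 16 complex V. The other 10 encode assembly factors or associated proteins, such as the Ndufaf family.

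The respiratory chain sits in the mitochondrial inner membrane. Complex I oxidises NADH and complex II oxidises succinate, and both pass electrons through ubiquinone to complex III. Cytochrome c then carries them to complex IV, which reduces oxygen. Complexes I, III and IV pump protons, and the returning protons drive ATP synthase, also called complex V. Most subunits are encoded in the nucleus, and the remainder come from mitochondrial DNA. Naive mESCs are known to use both respiration and glycolysis.

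The 12 RNA-seq libraries came from 4 genotypes of ES-E14TG2a, an mESC line, all of which carry a FLAG tag at the Trim71 locus. Trim71 is an RNA-binding protein of stem cells, and Ago2 is the Argonaute protein that carries microRNAs. The tagged line with no further change was called WT (2 libraries). CLIPΔ cells (2 libraries) lack the stretch of the Ago2 3′ untranslated region that Trim71 binds. Ago2 KO cells (4 libraries) lack Ago2, and Ago2 KO/CLIPΔ cells (4 libraries) carry both changes. Each mutant line was grown from single sorted cells, and which clone each library came from is not given in the labels. The cells were kept in 2i plus LIF medium, which holds mESCs in the naive state. The labels call the libraries biological replicates without naming separate cultures, so a p-value here measures only the spread between these libraries.

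Values are transcript abundances in TPM, which the study computed over 1 transcript per gene. TPM is scaled by transcript length and to a fixed total in each library, so a rise of some genes lowers the others. A level in TPM can be compared between genes only as far as the transcript length used fits the RNA present. The table's columns summed to between 998656 and 999501 TPM, read depth is unknown, and no interval for counting error could be given. Ago2, the targeted gene, lay between 20.3 and 28.2 TPM in the 4 libraries that keep the gene and between 1.51 and 2.87 TPM in the 8 without it. Naive markers were present in every library, 9 of 10 listed ones being in the table and their summed level lying between 9880 and 13100 TPM, mostly Dppa5a and Pou5f1. Single markers moved between genotypes. Dppa3 averaged 23.5 TPM in WT, 193 TPM in CLIPΔ and 2.26 TPM in Ago2 KO, and was called in both comparisons with WT (2.89 and -2.94). Klf4 was called lower in both (-0.57 and -0.54). Of 21 markers of other cell types, 18 were in the table, and their summed level was 573 to 596 TPM in WT, 476 to 599 in CLIPΔ, 517 to 671 in Ago2 KO and 497 to 737 in Ago2 KO/CLIPΔ. In WT, Vim (318 TPM), Krt8 (85.4 TPM), Nes (69.8 TPM), Eomes (49.5 TPM), T (18 TPM), Otx2 (14.2 TPM) and Pou3f1 (10.7 TPM) made up most of it, while Pax6 (0.209 TPM) and Elf5 (0.0446 TPM) were near 0. Of the 12 that were tested, none rose in Ago2 KO against WT, and Nes (-1.30, adjusted p = 4.39e-05) and T (-1.24, adjusted p = 0.00138) fell. Over all genes tested, 14.0% rose and 42.4% fell in that comparison. In Ago2 KO/CLIPΔ against CLIPΔ, 3 of the 12 markers rose and 1 fell, where 12.8% of all genes rose and 42.1% fell. The markers that rose were Eomes (0.62, adjusted p = 0.0345), Pou3f1 (0.61, adjusted p = 0.0172) and Krt8 (0.51, adjusted p = 0.0255), and Nes fell (-1.57, adjusted p = 1.37e-05). The part of these markers in the results was not tested.

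Before the results, the libraries themselves were compared, and the 8 without Ago2 formed a close set. Over the 11287 genes that averaged 1 TPM or more across libraries, the log2 levels of the 8 libraries without Ago2 correlated at 0.986 or more with each other. They correlated at 0.939 to 0.978 with the 4 WT and CLIPΔ libraries. Those 4 correlated at 0.968 to 0.988 with each other, a range that overlaps the former. Within the Ago2 KO and Ago2 KO/CLIPΔ genotypes, replicates 1 and 2 also stood apart from replicates 3 and 4. Loss of Ago2 and any difference in how the 8 libraries and the other 4 were grown or prepared cannot be told apart.

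Of the 91 genes, 89 averaged 1 TPM or more and were tested. The exceptions were Cox4i2 and Cox7b2, alternative forms of complex IV subunits known from lung and testis. Cox4i2 averaged 0.621 TPM over the 12 libraries and Cox7b2 0.0955 TPM.

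Together the 91 genes made up 2.27% to 3.00% of all TPM in a library. Their summed level was 22630 and 23189 TPM in the WT libraries and 22926 and 25245 TPM in the CLIPΔ libraries. It was 27229, 27640, 28931 and 29207 TPM in Ago2 KO. In Ago2 KO/CLIPΔ it was 27894, 27810, 29643 and 29989 TPM. All 8 libraries without Ago2 thus lay above all 4 with it, and within both of those genotypes replicates 3 and 4 lay above replicates 1 and 2. The group means were 22910 ± 395 TPM (SD, n = 2) in WT, 24090 ± 1640 (SD, n = 2) in CLIPΔ, 28250 ± 965 (SD, n = 4) in Ago2 KO and 28830 ± 1140 (SD, n = 4) in Ago2 KO/CLIPΔ.

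**Figure D1:**
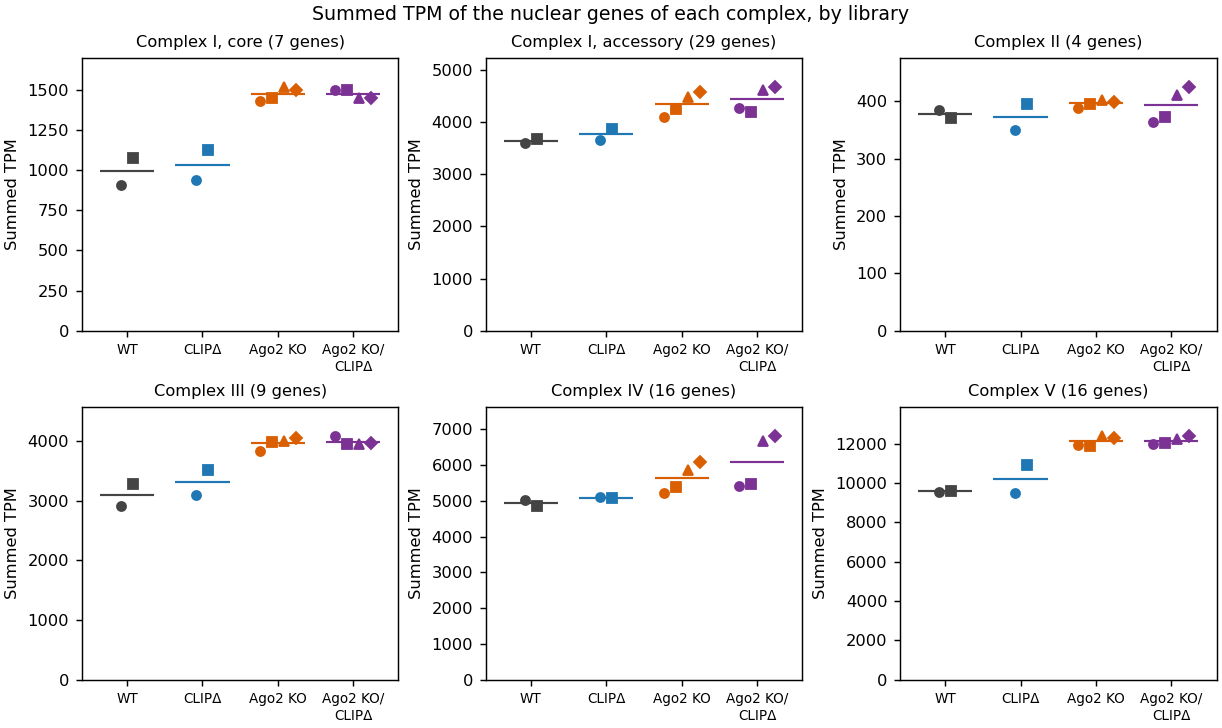
Summed TPM (vertical axis, from 0) of the nuclear genes of each complex in the 12 libraries, by genotype. Points are libraries, with circle, square, triangle and diamond for replicates 1 to 4, and lines are group means. The complex V sum lay between 9512 and 10940 TPM in WT and CLIPΔ libraries and between 11880 and 12370 TPM without Ago2, while the complex II sum lay between 349.4 and 395.5 TPM with Ago2 and between 363.4 and 424.7 TPM without it.

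The complexes took unequal parts of this total. Complex V was the most abundant, at 9574 ± 58.7 TPM (SD, n = 2) in WT and 12120 ± 241 TPM (SD, n = 4) in Ago2 KO. Complex IV followed at 4944 ± 121 TPM in WT and 5639 ± 405 TPM in Ago2 KO. The accessory subunits of complex I summed to 3635 ± 55.2 TPM in WT and 4353 ± 222 TPM in Ago2 KO, and its core subunits to 992 ± 122 and 1472 ± 40.1 TPM. Complex III went from 3096 ± 261 TPM in WT to 3966 ± 97.6 TPM in Ago2 KO. Complex II, which also serves the tricarboxylic acid cycle, stood at 378 ± 10.6 TPM in WT and 396 ± 5.57 TPM in Ago2 KO. These ranges did not overlap, from 370.9 to 385.9 TPM in WT and from 389.1 to 401.8 TPM in Ago2 KO, but both lay within that of Ago2 KO/CLIPΔ, 363.4 to 424.7 TPM.

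Levels of single subunits spread widely within a complex. In complex V, Atp5b, the catalytic beta subunit, had the highest mean over the 12 libraries at 3673 TPM. The F1 head holds alpha and beta in equal copies, while the transcript of Atp5a1, the alpha subunit, stood at 1770 TPM on average. In complex IV the mean ran from 1348 TPM for Cox4i1 down to Cox7b2. In complex III, Cyc1, cytochrome c1, led at 1313 TPM and Uqcrc2, a core protein, was lowest at 65.4 TPM. In the complex I core, Ndufv1, which holds the NADH-binding flavin site, led at 551 TPM and Ndufs1, the large iron-sulfur subunit, was lowest at 19.4 TPM. Among accessory subunits the mean ran from 613 TPM for Ndufb10 to 6.78 TPM for Ndufs4. In complex II, Sdhd, a membrane anchor, had 133 TPM, Sdha, the flavoprotein, 126 TPM, Sdhb, the iron-sulfur subunit, 77.1 TPM, and Sdhc, the other anchor, 51.6 TPM.

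Several subunits have alternative forms. The form Cox4i1 was at 1063 TPM or more in every library while Cox4i2 did not exceed 1.03 TPM in any. Cox6b2, a form known from testis, stood at 389 ± 26.5 TPM in WT, above Cox6b1 at 281 ± 16.8 TPM (SD, n = 2) in both libraries. In CLIPΔ, Cox6b2 had 380.1 and 295.8 TPM and Cox6b1 had 308 and 343.6 TPM, so the order turned in replicate 2. In Ago2 KO, Cox6b2 and Cox6b1 were 269 ± 21.9 and 273 ± 15.3 TPM (SD, n = 4), and in Ago2 KO/CLIPΔ 284 ± 28.3 and 303 ± 20.2 TPM (SD, n = 4). Cox7a1, the heart and muscle form, averaged 94.95 TPM against 232 TPM for Cox7a2. The table held no Cox6a2, Cox8b or Cox8c row. The c subunit that forms the rotor ring of ATP synthase is made from several genes whose mature proteins are identical. Of these, Atp5g3 led with 1634 TPM, followed by Atp5g1 with 349 TPM and Atp5g2 with 72.1 TPM. The ranges over the libraries of the Atp5g3, Atp5g1 and Atp5g2 levels did not overlap. The longest annotated coding transcripts of these genes have 723, 4715 and 753 bases. TPM divides by transcript length, so this order rests on the transcript used and was not checked with another.

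To see whether blocking Trim71 binding to Ago2 mRNA moved these genes, CLIPΔ was compared with WT. No member passed the test, and the largest differences were small beside their errors. Tests used limma on log2(TPM + 1) over all 12 libraries, with Benjamini-Hochberg adjustment over the 11287 genes and an adjusted p under 0.05 as the call. By that rule 2.27% of all genes were called in CLIPΔ against WT, and none of the 89 members was (smallest adjusted p = 0.281). At an unadjusted p under 0.05 there were 2 members, where 1459 of the 11287 genes tested passed that limit. The median difference of the members was 0.04 on the log2 scale, beside -0.05 for all genes tested, and 58 of 89 members lay above 0. For 74 of the 89 members the 95% interval of the difference lay within 0.5 on the log2 scale on either side of 0.

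The widest difference between these groups was that of Ndufa4l2, a paralog of the complex IV subunit Ndufa4 that is known as a hypoxia-induced gene. It had 59.4 and 64.2 TPM in WT and 36.1 and 29.7 TPM in CLIPΔ. The groups did not overlap, but the difference of -0.89 (SE 1.11, adjusted p = 0.826) was far within the spread seen elsewhere, because Ndufa4l2 varied more within the other genotypes. In a fit of these 4 libraries with the replicate number as a block, which was chosen after seeing the data, Ndufa4l2 was the only member called (adjusted p = 0.0295). That is 1 of 89 members, where 1.72% of all genes were called higher and 1.47% lower. Cox7a1 had the highest difference, 0.55 (SE 0.33, 95% interval -0.18 to 1.28), from 59.7 and 84.9 TPM in WT and 94.1 and 117 TPM in CLIPΔ. Sdha, Sdhb, Sdhc and Sdhd differed by -0.01, 0.09, -0.04 and -0.09, and Cyc1 by 0.03, none of them past the test.

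To see what the loss of Ago2 did, Ago2 KO was compared with WT. Members moved in both directions. Over all libraries more of them rose than fell, although most genes called in the whole table fell. Of the 89 members, 36 rose, 23 fell and 30 did not pass the test. The share of members that rose was 40.4%, where 14.0% of all genes rose. The share that fell was 25.8%, where 42.4% of all genes fell. The median over members was 0.13 on the log2 scale, where the median over all genes was -0.26, so that members lay 0.39 above the middle of the table. Without WT replicate 1 the number of members called went from 59 to 36, of which 24 rose and 12 fell, where 7.5% of all genes rose and 29.7% fell. From replicates 1 and 2 of each genotype alone the balance turned, with 21 members higher and 25 lower, where 9.78% of all genes rose and 33.1% fell.

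Which members count as lowered depends on what the zero is. With each library centred on its median gene, 54 members rose and 3 fell, where 31.5% and 21.0% of all genes did so. The 3 that still fell were Cox7c, Ndufaf1 and Ndufaf4. Cox6c, Ndufs4, Sdhc, Cox6b2, Cox7a2 and Cox7a2l, described below as lower, kept their sign but were no longer called.

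The complexes differed in their balance. In the complex I core, 4 of 7 genes rose and 1 fell, with a median difference of 0.46. Of the 29 accessory genes of complex I, 11 rose and 7 fell (median 0.12). In complex V, 9 of 16 rose and 2 fell (median 0.28), and in complex III 4 of 9 rose and 2 fell (median 0.19). Complex IV was split, with 5 rises and 5 falls among 14 genes tested (median -0.17). In complex II, Sdhb rose and Sdhc fell. Of the 10 assembly and associated genes, 2 rose and 5 fell (median -0.21). These medians and counts describe the groups and were not compared with each other by a test.

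**Figure D2:**
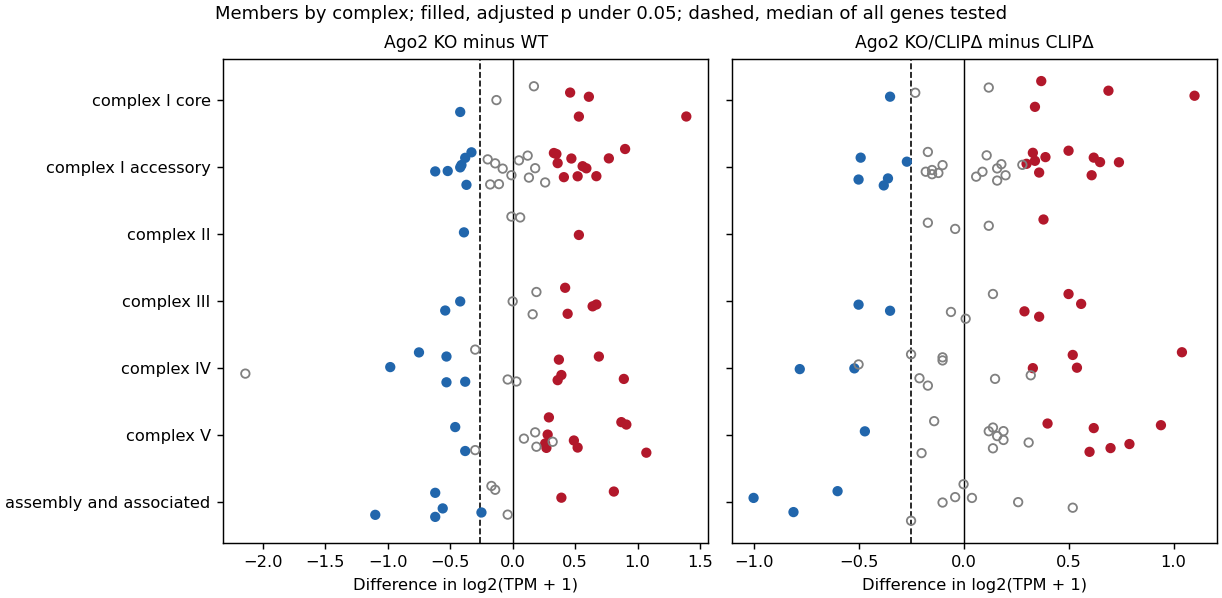
Difference in log2(TPM + 1) (horizontal axis) of the 89 members tested, by complex, for Ago2 KO minus WT (left) and Ago2 KO/CLIPΔ minus CLIPΔ (right). Filled red and blue points are members that rose or fell at an adjusted p under 0.05 and open points are the others. The dashed lines mark the medians of all genes, -0.26 and -0.25, and 36 members on the left and 29 on the right are red.

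Ndufs7, a core subunit that holds the last iron-sulfur cluster before ubiquinone, rose most. It had 73.1 and 85.8 TPM in WT and 216, 208, 203 and 210 TPM in Ago2 KO. Every Ago2 KO library was above both WT libraries, and the difference was 1.39 (SE 0.13, adjusted p = 3.1e-05), or 2.62-fold on the log2(TPM + 1) scale.

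Atp5g1, one of the c subunit genes, followed. It had 189 and 208 TPM in WT and 396, 414, 413 and 442 TPM in Ago2 KO, a difference of 1.07 (SE 0.12, adjusted p = 6.55e-05). About 33.2% of its 31-base words also occur elsewhere in the genome, so its level may hold reads from copies. Of the other c subunit genes, Atp5g2 rose by 0.87 (adjusted p = 4.96e-05) and Atp5g3 by 0.28 (adjusted p = 0.00993).

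Atp5d, the delta subunit of the F1 stalk, had 546 and 795 TPM in WT and 1222, 1193, 1267 and 1286 TPM in Ago2 KO. The WT libraries differed widely, and the difference was 0.91 (SE 0.14, adjusted p = 0.00033). Ndufa11, an accessory subunit in the membrane arm of complex I, rose by 0.90 (SE 0.12, adjusted p = 0.000189), from 113 and 125 TPM to between 205 and 239 TPM. Cox5b, the zinc-binding subunit of complex IV, had 396 and 405 TPM in WT and 676, 742, 786 and 776 TPM in Ago2 KO. Its difference was 0.89 (SE 0.10, adjusted p = 6.73e-05), with 48.9% of its 31-base words found elsewhere.

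Ndufaf4, an assembly factor of complex I, fell most. It had 52.9 and 41.0 TPM in WT and 26.4, 24.1, 16.7 and 19.0 TPM in Ago2 KO, with no overlap. The difference was -1.10 (SE 0.17, adjusted p = 0.000344).

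Cox7c, a small subunit of complex IV, had 263 and 320 TPM in WT and 119, 150, 159 and 162 TPM in Ago2 KO. It fell by 0.98 on the log2 scale (SE 0.19, adjusted p = 0.0012). Cox6c, another small subunit of complex IV, fell by 0.75 (SE 0.20, adjusted p = 0.00667), from 178 and 148 TPM to between 83.5 and 109 TPM. Ndufaf1, an assembly factor of complex I, fell by 0.62 (SE 0.12, adjusted p = 0.00135), and so did Ndufs4, an accessory subunit of the complex I arm that faces the matrix (SE 0.14, adjusted p = 0.00349). Both started low, with WT means of 26.7 ± 4.15 and 9.07 ± 1.99 TPM (SD, n = 2).

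**Figure D3:**
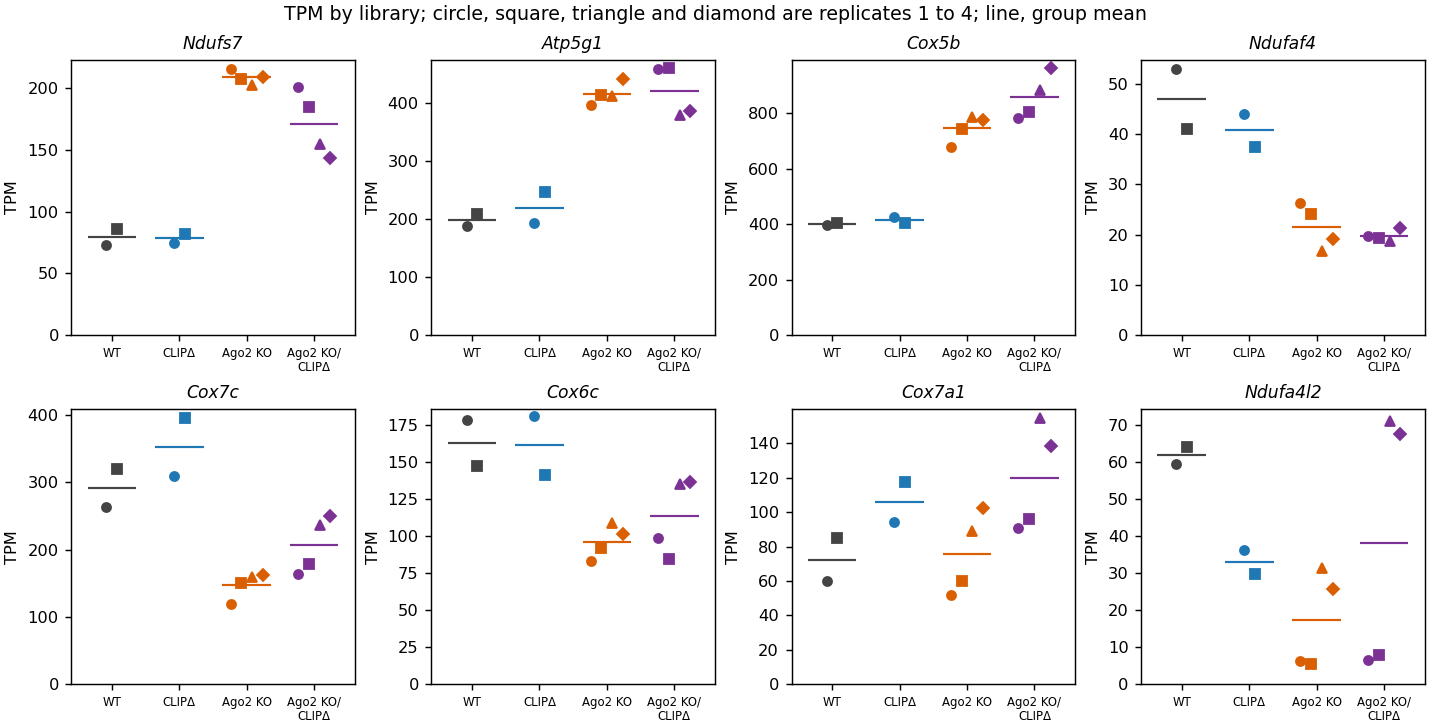
TPM (vertical axes, from 0) in each library for the members Ndufs7, Atp5g1, Cox5b, Ndufaf4, Cox7c, Cox6c, Cox7a1 and Ndufa4l2. Points are libraries, with circle, square, triangle and diamond for replicates 1 to 4, and lines are group means. Ndufs7 stood at 73.1 to 85.8 TPM in WT and 203 to 216 TPM in Ago2 KO, and Ndufa4l2 split between replicates 1 and 2 and replicates 3 and 4 of both genotypes without Ago2.

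Among the other assembly factors, Ndufaf3 rose by 0.81 (adjusted p = 0.00725) and Ndufaf8 by 0.39 (adjusted p = 0.0105). Without WT replicate 1 neither passed the test, with differences of 0.35 (adjusted p = 0.143) and 0.18 (adjusted p = 0.185). Ndufaf2 fell by 0.25 (adjusted p = 0.0436), a call that was lost under most other settings and whose sign turned after median centring. Ndufaf5, Ndufaf6 and Ndufaf7 did not pass, with differences of -0.17, -0.04 and -0.14. Of the complex II genes, Sdhb rose by 0.53 (adjusted p = 0.00139) and Sdhc fell by 0.39 (adjusted p = 0.0369), while Sdha (-0.01) and Sdhd (0.06) did not pass. Cyc1 rose by 0.64 (adjusted p = 0.000846).

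Among alternative forms, Cox4i1 rose by 0.36 (adjusted p = 0.038), Cox5a by 0.39 (adjusted p = 0.00374), Cox6a1 by 0.69 (adjusted p = 0.000394) and Cox8a by 0.37 (adjusted p = 0.0136). Cox6b2 fell by 0.53 (adjusted p = 0.0039), where Cox6b1 had a difference of -0.04 (adjusted p = 0.71). Cox7a2 fell by 0.38 (adjusted p = 0.0122) and Cox7a2l, which takes part in supercomplex assembly, by 0.56 (adjusted p = 0.0366). Cox7a1 had a difference of 0.03 and Ndufa4 of -0.30, and neither passed.

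Ndufa4l2 was the member with the widest spread. It had 6.34 and 5.48 TPM in replicates 1 and 2 of Ago2 KO but 31.4 and 25.6 TPM in replicates 3 and 4. In Ago2 KO/CLIPΔ it had 6.40 and 7.81 TPM in replicates 1 and 2 and 70.98 and 67.5 TPM in replicates 3 and 4. These pairs of libraries did not overlap within either genotype, and the gene's difference from WT of -2.14 (SE 0.96, adjusted p = 0.0748) did not pass the test.

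The direction in which a member moved went with the base composition of its transcript. The members that rose had a median G+C content of 54.7%, those that did not pass 50% and those that fell 47.5%. Across the 89 members the difference between Ago2 KO and WT correlated with G+C at a Pearson r of 0.487 and a Spearman rho of 0.537. Across all 11212 tested genes with an annotated transcript the values were 0.499 and 0.531. These are descriptions across genes, which share libraries and are not independent replicates. Members are also short, with a median transcript of 934 bases against 2940 bases for all genes, and over all genes the difference correlated with transcript length at r = -0.307 and rho = -0.348. Among members alone these values were -0.034 and -0.044. Over coding sequences alone, r with G+C was 0.540, and the median was 56.4% G+C in members that rose and 50% in those that fell.

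In each range of G+C content members lay above all genes. Below 45% G+C the median was -0.42 for 13 members and -0.67 for all genes, and between 45% and 50% it was -0.13 for 25 members and -0.40 for all genes. Between 50% and 55% it was 0.17 for 27 members against -0.14, and at 55% and over it was 0.42 for 24 members against 0.14. After adjustment of every library for G+C and length, an alternative chosen after seeing the data, 45 members rose and 10 fell, where 22.8% and 20.8% of all genes did so. Of the members named above, Ndufaf4 (-0.35), Cox7c (-0.34), Cox7a2l (-0.43), Ndufs4 (-0.17), Sdhc (-0.06), Ndufaf2 (0.01), Cox4i1 (0.14) and Cox8a (0.18) were then no longer called.

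**Figure D4:**
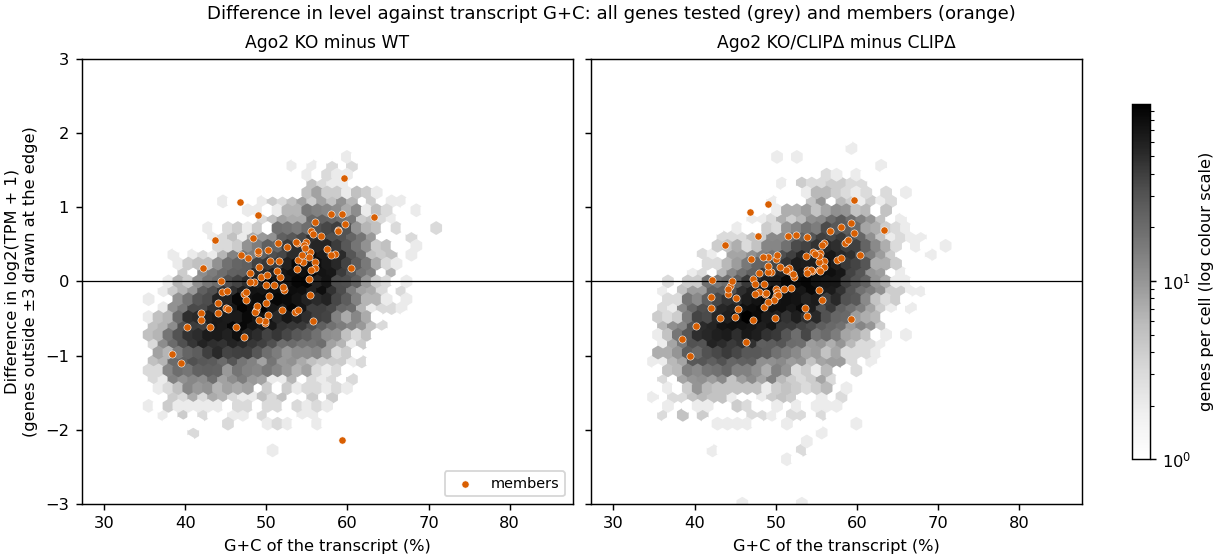
Difference in log2(TPM + 1) (vertical axis) against the G+C content in percent of each gene's transcript (horizontal axis) for Ago2 KO minus WT (left) and Ago2 KO/CLIPΔ minus CLIPΔ (right). Grey cells count the 11212 genes on a log colour scale and orange points are the 89 members. Both rise from left to right, with a Pearson r over members of 0.487 on the left and 0.583 on the right.

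A relation to G+C also appeared between libraries of the same genotype. Over all genes, the difference of WT replicate 2 from WT replicate 1 correlated with G+C at r = 0.438. The difference of Ago2 KO/CLIPΔ replicates 3 and 4 from replicates 1 and 2 did so at r = -0.451. The part of library preparation in the members' differences was not tested.

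Loss of Ago2 could also be read in CLIPΔ cells, by comparing Ago2 KO/CLIPΔ with CLIPΔ. The group means compared share no library with those of Ago2 KO against WT. Both tests take each gene's spread from the same fit over all 12 libraries. Of 89 members, 29 rose, 14 fell and 46 did not pass, where 12.8% of all genes rose and 42.1% fell. The median over members was 0.14, beside -0.25 over all genes. Without CLIPΔ replicate 1 the members called went from 43 to 25, of which 17 rose and 8 fell, where 5.29% of all genes rose and 27.4% fell. From replicates 1 and 2 alone the balance again turned, with 17 members higher and 21 lower, where 9.74% of all genes rose and 41.7% fell. With median centring 54 rose and 2 fell, where 30.1% and 21.0% of all genes did so, and after adjustment for G+C and length 46 rose and 3 fell, where 22.5% and 19.4% of all genes did so.

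Largely the same genes were called as in the comparison of Ago2 KO with WT. Of the members that rose, 27 were shared, which is 75.0% of the 36 and 93.1% of the 29. Of those that fell, 14 were shared, 60.9% of the 23 and 100% of the 14, and no member was called in opposite directions. The sign was the same for 84 of the 89 members, and the differences correlated at r = 0.914 across members. The 8 libraries without Ago2 stand together, so their distance from the other libraries bears on both comparisons. The calls also share each gene's estimate of spread, so their overlap is not an independent repeat.

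The same 5 members led the rise. Ndufs7 had 74.7 and 82.2 TPM in CLIPΔ and 201, 185, 155 and 144 TPM in Ago2 KO/CLIPΔ, a difference of 1.10 (SE 0.13, adjusted p = 9.34e-05). Cox5b had 426 and 406 TPM in CLIPΔ and 783, 803, 885 and 963 TPM in Ago2 KO/CLIPΔ, a difference of 1.04 (SE 0.10, adjusted p = 3.05e-05). Neither gene's groups overlapped. Atp5g1 rose by 0.94 (SE 0.12, adjusted p = 0.000151), Atp5d by 0.79 (SE 0.14, adjusted p = 0.000809) and Ndufa11 by 0.74 (SE 0.12, adjusted p = 0.000658).

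At the other end, Ndufaf4 had 44.0 and 37.4 TPM in CLIPΔ and 19.7, 19.3, 18.8 and 21.3 TPM in Ago2 KO/CLIPΔ. It fell by 1.00 on the log2 scale (SE 0.17, adjusted p = 0.00066). Ndufaf1 fell by 0.81 (adjusted p = 0.00037), Cox7c by 0.78 (adjusted p = 0.00487) and Cox6c by 0.52 (adjusted p = 0.0407). After adjustment for G+C and length, Ndufaf4 (-0.26, adjusted p = 0.15), Cox7c (-0.11, adjusted p = 0.675) and Cox6c (-0.20, adjusted p = 0.266) were no longer called. With median centring, Cox7c (-0.45, adjusted p = 0.0553) and Cox6c (-0.19, adjusted p = 0.393) were not called either. Atp5s, which encodes a factor associated with ATP synthase, fell by 0.60 (adjusted p = 0.0127) from a mean of 2.48 TPM to 1.31 TPM, near the lower limit for testing, and its difference was 0.02 after adjustment for G+C and length. Sdhb rose by 0.38 (adjusted p = 0.00889) and Cyc1 by 0.50 (adjusted p = 0.00379), and Sdhc had a difference of -0.17 that did not pass.

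Over both comparisons, 30 of the 89 members had all 8 libraries without Ago2 above all 4 libraries with it, a share of 33.7% where 9.51% of all genes did. Another 14 members had all 8 below, 15.7% where 36.4% of all genes did.

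To ask whether the deleted Trim71 site mattered in the absence of Ago2, Ago2 KO/CLIPΔ was compared with Ago2 KO. No member was called, where 0.877% of all genes were (smallest adjusted p over members = 0.151). At an unadjusted p under 0.05 there were 11 members, 9 of them higher, where 1243 of the 11287 genes tested passed that limit. The 95% interval lay within 0.5 on either side of 0 for 81 of the 89 members, and the median over members was 0.03 beside -0.04 for all genes. Same-numbered libraries of these genotypes deviated together, but about as closely as others within replicates 1 and 2 or within 3 and 4. The numbers were thus not shown to pair single libraries. With the replicate number as a block, 3 members rose, where 0.558% of all genes rose, and none fell. They were Cox7a1 (0.67, adjusted p = 0.00825), Cox7c (0.47, adjusted p = 0.0158) and Ndufc1, an accessory subunit of complex I (0.34, adjusted p = 0.0399).

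Cox7a1 had 51.8, 59.7, 89.3 and 102 TPM in replicates 1 to 4 of Ago2 KO and 90.9, 95.9, 155 and 139 TPM in those of Ago2 KO/CLIPΔ. It was higher at each replicate number, though the groups overlapped because replicates 3 and 4 were higher in both. Cox7c had 119, 150, 159 and 162 TPM in Ago2 KO and 163, 179, 236 and 249 TPM in Ago2 KO/CLIPΔ, with no overlap. Of the 14 complex IV genes tested, 13 were above 0 in this comparison, with a median of 0.14, and no other complex had a median above 0.07. Of all genes tested, 4183 of 11287 were above 0. Of the cytoplasmic ribosomal protein genes, 71 of 84 were, with a median of 0.13, so such a lean was not particular to complex IV. The complex IV sum was 5639 ± 405 TPM in Ago2 KO and 6088 ± 747 TPM in Ago2 KO/CLIPΔ (SD, n = 4), which overlap.

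Replicates 1 and 2 gave other answers than replicates 3 and 4. From replicates 1 and 2 alone, no member and no gene was called. From replicates 3 and 4 alone, 32 members rose and 12 fell in a table where 4277 of 11287 genes were called. What separates these pairs of libraries was not tested.

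The difference between the effect of CLIPΔ with and without Ago2, tested as an interaction, was called for none of the 89 members (smallest adjusted p = 0.638), where 0.647% of all genes were called. No member had an unadjusted p under 0.05, where 904 of the 11287 genes tested did. The median over members was 0.00, and the estimates ran from -0.29 for Ndufaf3 to 1.64 for Ndufa4l2, whose 95% interval of -1.32 to 4.59 is wide.

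Other genes of the same pathway were read from lists. None of the 13 genes of mitochondrial DNA was in the table used here, so the mitochondrially encoded subunits were not analysed here. In Ago2 KO against WT, 14.0% of all genes rose and 42.4% fell. Of 32 assembly factors outside the naming rule that were tested, 6 rose and 7 fell in that comparison (median 0.01). The furthest were Atpaf1, a chaperone of the F1 head (0.79, adjusted p = 8.01e-05), and Coa3, a complex IV factor (0.68, adjusted p = 0.000351). At the other end stood Cox20, a chaperone of a complex IV subunit (-1.49, adjusted p = 0.00135), and Timmdc1, a complex I factor (-1.11, adjusted p = 0.00241). In CLIPΔ against WT, Tmem70, a factor of ATP synthase, rose by 0.74 (adjusted p = 0.0246), from 6.90 to 12.2 TPM on average. It was the only one of these 32 called there, where 2.27% of all genes were.

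Of 6 carrier and inhibitor genes, Slc25a5, an adenine nucleotide carrier, rose by 0.36 (adjusted p = 0.0222) and Slc25a3, the phosphate carrier, by 0.28 (adjusted p = 0.00734) in Ago2 KO. Cyct, the testis cytochrome c, fell by 0.83 (adjusted p = 0.0126) from a mean of 2.91 TPM. In the tricarboxylic acid cycle, 3 of 18 genes rose and 5 fell (median 0.01), where 14.0% of all genes rose and 42.4% fell. Mdh2, malate dehydrogenase, rose by 0.86 (adjusted p = 7.31e-05) and Idh2 by 0.58 (adjusted p = 0.00247). Suclg2 fell by 0.74 (adjusted p = 0.000476) and Dld by 0.70 (adjusted p = 0.00372).

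Of 12 regulators of nuclear respiratory genes, 7 were lower and 1 higher in Ago2 KO against WT (median -0.32), where 42.4% of all genes were lower. In Ago2 KO/CLIPΔ against CLIPΔ, 8 were lower and 1 higher (median -0.54), where 42.1% of all genes were lower. Relative to the median of all genes these medians were -0.06 and -0.29. Gabpa, the DNA-binding subunit of the GABP factor, had means of 41.1 TPM in WT and 17.5 TPM in Ago2 KO, a difference of -1.18 (SE 0.15, adjusted p = 0.000108). Gabpb2, one of its partner subunits, fell by 1.38 (SE 0.26, adjusted p = 0.001). Polrmt, the mitochondrial RNA polymerase, rose by 0.40 (adjusted p = 0.0309).

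Among the gene groups set beside the members, mitochondrial ribosomal protein genes had 30 of 78 higher and 15 lower in Ago2 KO against WT (median 0.18). Cytoplasmic ribosomal protein genes had 15 of 84 higher and 30 lower (median -0.13). Glycolysis genes had 6 of 20 higher and 3 lower (median 0.05). The members had 36 of 89 higher and 23 lower (median 0.13). Of these groups, only the cytoplasmic ribosomal protein genes had more lower than higher, where 42.4% of all genes were lower and 14.0% higher. The counts were not compared by a test, and they do not set the members apart from mitochondrial ribosomal protein or glycolysis genes.

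Promoters are shown because many respiratory genes are known targets of a few factors with short recognition sequences. RefSeq promoters of 300 bases on GRCm38.p6, from 250 before to 50 after the start of transcription, were matched to 75 of the 91 members. Printed here are the member that rose most, the most raised member whose promoter holds the NRF1 letters, and the member that fell most in Ago2 KO against WT, at chr10:80249199-80249498, chr17:56717512-56717811 and chr4:24897833-24898132, all on the plus strand. Capitals mark matches, on either strand, to GCGCATGCG (NRF1), CCGGAAG (ETS factors such as GABP), AAGATGGCG (YY1) or GGGCGG (Sp1).
Ndufs7: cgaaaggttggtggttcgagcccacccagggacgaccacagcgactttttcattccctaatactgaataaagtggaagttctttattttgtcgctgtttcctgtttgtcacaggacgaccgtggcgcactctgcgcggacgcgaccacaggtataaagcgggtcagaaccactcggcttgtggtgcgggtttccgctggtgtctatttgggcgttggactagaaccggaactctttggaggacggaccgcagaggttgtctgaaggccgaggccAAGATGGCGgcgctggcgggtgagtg
Ndufa11: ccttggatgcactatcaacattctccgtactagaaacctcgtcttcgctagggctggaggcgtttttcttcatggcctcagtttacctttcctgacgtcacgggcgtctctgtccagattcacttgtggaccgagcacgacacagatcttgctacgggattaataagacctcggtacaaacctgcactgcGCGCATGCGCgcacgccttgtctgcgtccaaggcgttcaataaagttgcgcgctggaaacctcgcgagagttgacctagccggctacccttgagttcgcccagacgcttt
Ndufaf4: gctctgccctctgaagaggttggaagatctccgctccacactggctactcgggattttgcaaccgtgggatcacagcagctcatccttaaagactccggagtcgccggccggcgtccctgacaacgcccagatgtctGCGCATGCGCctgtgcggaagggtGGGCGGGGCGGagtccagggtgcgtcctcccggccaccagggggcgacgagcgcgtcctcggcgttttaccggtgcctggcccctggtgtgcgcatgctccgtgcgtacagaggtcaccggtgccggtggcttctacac

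The Ndufs7 window holds the YY1 letters just after its start, and the Ndufaf4 window holds the NRF1 and Sp1 letters although that gene fell. A gene was counted if any of its promoters held the letters. The NRF1 letters stood in 10 of 75 members (13.3%), where 2.0% of the 27025 genes with a promoter hold them. The ETS letters stood in 18 (24.0%, where 9.9% of all do), the YY1 letters in 8 (10.7%, where 1.6% do) and the Sp1 letters in 35 (46.7%, where 38.2% do). By direction in Ago2 KO against WT, the NRF1 letters were in 7 of 31 members that rose, 2 of 23 that did not pass and 1 of 20 that fell. The ETS letters were in 10, 6 and 2 of these, the YY1 letters in 2, 3 and 3, and the Sp1 letters in 12, 12 and 10 (38.7%, 52.2% and 50%). The remaining member with a promoter is Cox7b2, which was not tested. Median promoter G+C was 57.3%, 59.0% and 58.9% in members that rose, did not pass and fell. It was 58.3% over the 75 members and 52.7% over all genes with a promoter, and the shares above were not adjusted for this. A match in letters describes the sequence and does not show that a factor binds.

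The Trim71 CLIP-seq peak list, which records where Trim71 was crosslinked to RNA in mESCs, held 4 of its 498 peaks in members. They fell in Atp5a1 and Atp5b, the alpha and beta subunits of the F1 head and the genes with the highest levels in the set. The Atp5a1 peak had 3425 reads and was labelled as coding. It lay wholly within neither an exon nor an intron of the transcript with the longest coding sequence. The list gives 1 read number per peak and none per replicate, so these have no error, and its median peak had 2280.5 reads.

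Atp5b (chr10:128083273-128090391, plus strand) has 3 peaks, shown here in windows of 30 bases from GRCm38 with the peak in capitals. Where the list starts its count of positions is not stated, so the edges of the capitals may be off by a base. The first lies in exon 2 of 10 (2484 reads, chr10:128084023-128084027). The second (1876 reads, chr10:128084165-128084169) lies in intron 2, within the small nucleolar RNA gene Snord59a. The third (3200 reads, chr10:128085307-128085321), which the list labels as 5′ untranslated, lies in intron 4 of the main transcript, within the microRNA gene Mir677.
Atp5b exon 2: ctaaatgccctgGAAGTgcaaggcagggac
Atp5b intron 2: tgactttaccaaATGACtttcgttcttctg
Atp5b intron 4: gattagcTTCTGACTTTCGTTCttctgaat

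The intronic peaks share a sequence. Snord59a and Mir677 have an identical run of 18 bases, TGACTTTCGTTCTTCTGA, which overlaps most of both peaks. Short reads within this run cannot be assigned to either gene by sequence. Against WT, Atp5b had a difference of 0.13 in CLIPΔ (adjusted p = 0.65) and 0.27 in Ago2 KO (adjusted p = 0.016), and Atp5a1 had 0.06 (adjusted p = 0.90) and 0.26 (adjusted p = 0.041).

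Related sequences bear on several other members. Of the 91, 24 share at least 20% of their 31-base words with other places in the genome, and 9 overlap an antisense gene over at least 20% of their length. How the study's counting treated such reads is not given in the sources used here. Among the 65 tested members under that limit for shared words, 25 rose and 16 fell in Ago2 KO against WT. Over all genes tested, without this limit, 14.0% rose and 42.4% fell. In bulk RNA, fewer cells of a kind and less RNA per cell cannot be told apart, which holds for every difference above.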

How the data were processed

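RNA-seq was read from a table of TPM that the authors deposited. Per the study methods and the submitters' processing notes, reads were aligned with HISAT2 2.1.0 to mm10, counted with HTSeq over the longest transcript of each gene and converted to TPM. The deposited counts of reads per peak in the CLIP-seq list and the deposited TPM of small RNAs were used as given. TPM are not counts, so the edgeR test named in the study could not be run. Columns coded d3 were taken as CLIPΔ, the only genotype left.

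The 11287 genes averaging 1 TPM or more were tested with limma 3.58.1 in R 4.3.3 on log2(TPM + 1), with a trend in the variance, 1 fit over the 4 genotypes and Benjamini-Hochberg adjustment (threshold 0.05). The fit was tested on simulated data. Fold changes on this scale understate changes of low genes. Same-numbered Ago2 KO and Ago2 KO/CLIPΔ libraries deviated together (r = 0.433, 0.320, 0.420 and 0.360). Differently numbered ones did so about as closely within replicates 1 and 2 (r = 0.387 and 0.335) and within replicates 3 and 4 (r = 0.347 and 0.467). This grouping comes from the data, and the numbers were not shown to pair single libraries. G+C, length and copies were taken from the longest coding transcript in GENCODE M21 (99.3% of tested genes had one). Named genes were the 5 highest and 5 lowest called members per comparison, the extremes of level in each complex, Cyc1, complex II, alternative forms, Ndufaf genes, and the outer 2 called genes of each list. The members and lists were chosen with earlier results of these data known. Alternatives are described in the closing section.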

Additional observations from a re-analysis of the deposited data

Results flagged for a closer look

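In replicate 1 of Ago2 KO/CLIPΔ, the complex III genes summed to 4077 TPM, while the other 3 libraries of that genotype lay between 3946 and 3958 TPM. This library stood apart by Dixon's rule for 4 values, which by chance marks about 5% of groups. It was the only mark among 86 groups of 4 values examined over named members and complex sums.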

How the results depend on the processing

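Depth is unknown, so counting error could not be set against any difference. Rows for mitochondrial DNA genes were absent from the table used here, so the planned recomputation without them was not run. Of all recomputed values, 772 kept direction and side of the threshold, 68 kept direction but were no longer called, 55 moved and 3 reversed. In CLIPΔ against WT, 256 genes were called. The count was 510 with no filter on low values, 0 with only the libraries compared, 441 after adjustment for G+C and length, and 105 to 397 when 1 library was left out (105 without CLIPΔ replicate 1, 397 without CLIPΔ replicate 2). Same-numbered WT and CLIPΔ libraries deviated together (r = 0.715), but with only 2 such pairs the number was not taken to pair them. With the replicate block on these libraries alone 194 genes were called higher and 166 lower, and 1 member, Ndufa4l2, was called. In Ago2 KO against WT, leaving out 1 library gave 4195 to 6479 called genes and 36 to 54 called members, the lowest without WT replicate 1. In Ago2 KO/CLIPΔ against CLIPΔ it gave 3692 to 6187 genes and 25 to 41 members, the lowest without CLIPΔ replicate 1. Ndufaf2 in Ago2 KO against WT turned to 0.10 with median centring and 0.01 after G+C and length adjustment, and Atp5s in Ago2 KO/CLIPΔ against CLIPΔ to 0.02 after the latter. The cause was not tested.

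In Ago2 KO/CLIPΔ against Ago2 KO, 99 genes and 0 members were called. With the replicate block the counts were 180 and 3, and with the block on the compared libraries alone 825 and 6. With G+C and length adjustment 168 genes were called, and with this adjustment and the block 402 genes and 4 members. With only the libraries compared 364 genes were called. Replicates 1 and 2 alone gave 0 genes, and replicates 3 and 4 alone 4277 genes and 44 members. Leaving out 1 library gave 21 to 68 genes. For the interaction, 73 genes were called, 168 with no filter, 0 from replicates 1 and 2, 118 after G+C and length adjustment, and 51 to 144 when 1 library was left out, the highest without CLIPΔ replicate 2. No member was called for the interaction when 1 library was left out. The adjustment for G+C and length and the block on compared libraries alone were chosen after seeing the data.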

Other observations

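The microRNA miR-677-5p comes from the Mir677 gene in intron 4 of Atp5b. Its mature sequence in RefSeq, with the seed in capitals, is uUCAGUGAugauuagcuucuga. In the small RNA table its TPM, given from lowest to highest in each genotype, was 28.4, 29.9, 37.5 and 40 in WT and 27.9, 36.3, 47.8 and 54.9 in CLIPΔ. In Ago2 KO it was 123, 142, 145 and 155, and in Ago2 KO/CLIPΔ 77.8, 99.4, 111 and 132. All 8 libraries without Ago2 lay above the 8 with it. This microRNA was chosen after its values were seen, no test was made, and values in this table are relative to all other microRNAs in a library.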
